A study of Homo sapiens with 95 samples.

Results

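A comparison was made between 2 CRISPR knockout lines of AALE, one targeted at FAT1 and one at CDKN2A, both kept in the solvent DMSO. The 6 samples, 3 for each line, were chosen by their labels out of 95 samples in the series, and 14469 genes with a mean count above 1 over these 6 samples were tested. AALE is an established, immortalized human cell line from bronchial epithelium. The labels give 8 genotypes and 4 treatments, and RNA was profiled by sparse full length (SFL) sequencing, in which barcoded samples are pooled and sequenced together at low depth. The FAT1 and CDKN2A lines differ by their CRISPR target and share the AALE background, the DMSO vehicle and the Cas9 method. The control for both is the GFP line, which received a pSpCas9-EGFP plasmid (PX458) with no sgRNA. The HcRed line, which carries an empty vector with the HcRed reporter and is the control of the overexpression lines of the same series, served as a further reference. Both control lines were used in DMSO with 3 samples each, and the 2 knockouts were also compared in 18 samples exposed to condensed cigarette smoke (CSC, 24 μg/ml), to the polycyclic hydrocarbon benzo(a)pyrene (BaP, 173 μM) or to the tobacco nitrosamine NNK (490 μM). The sources used here do not say whether each knockout line is a clone or a pool, so the knockout and other differences between the lines cannot be told apart, and the p-values measure the spread between samples of the same line.

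FAT1 encodes a giant atypical cadherin at cell contacts that is linked to actin organization and to the Hippo pathway, in which the LATS kinases keep the coactivators YAP and TAZ out of the nucleus. CDKN2A encodes both p16INK4a, which inhibits the cyclin D kinases CDK4 and CDK6 and thereby keeps RB active, and p14ARF, which restrains MDM2 and so protects p53. Both genes are recurrently lost in squamous lung cancer. A count for the symbol CDKN2A sums the transcripts of both proteins.

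The 12 DMSO samples of the 4 lines held between 694898 and 1333632 counted reads, and 3 counts, the floor used here, correspond to between 2.25 and 4.32 CPM (read counts scaled to library size). Reads carry no stated molecular identifiers, so such floors cover counting error only. The 18 treated samples held between 381419 and 1548052 reads, where 3 counts correspond to between 1.94 and 7.87 CPM. Samples of the same line correlated at 0.967 to 0.977 in log2 CPM in DMSO, and no 2 files were identical. All values per sample below are CPM normalized by the TMM method over all 95 samples, and fold changes and adjusted p-values come from limma-voom fits of the 6 samples compared, with Benjamini-Hochberg adjustment over all genes tested. The markers set for airway basal epithelium summed to 10800 to 11600 CPM over 14 genes in the FAT1 samples, 10900 to 11100 in the CDKN2A samples, 13500 to 14000 in the GFP samples and 13800 to 14300 in the HcRed samples. Markers of other cell types summed to much less, with 10 markers of secretory and alveolar cells at 0 to 5.33 CPM, 7 of them at 0 in all 12 samples, 8 endothelial markers at 0 to 3.61 CPM, 12 blood cell markers at 7.99 to 17.4 CPM and 10 fibroblast markers at 10.6 to 34.9 CPM. The 10 ciliated cell markers summed to 316 to 531 CPM, of which TUBB4B, a tubulin, was the only one of 5 tested that passed between the knockouts (log2 fold change -0.25), a call lost without FAT1 replicate 1 (-0.07, adjusted p = 0.431 from limma-voom).

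The targeted genes were examined first. FAT1, on chromosome 4 of GRCh37 (hg19) from 187508948 to 187647876, stood at 129, 110 and 126 CPM in the FAT1 samples and at 1100, 1110 and 1150 CPM in the CDKN2A samples. The GFP samples held 394, 397 and 451 CPM and the HcRed samples 682, 600 and 680 CPM. The FAT1 line was therefore below every other sample and the CDKN2A line above every other sample, with no overlap between any of the 4 lines. FAT1 was 9.10-fold higher in the CDKN2A line than in the FAT1 line, a log2 fold change of -3.19 (SE 0.09, adjusted p = 9.22e-42 from limma-voom). Against GFP, its log2 fold change was -1.80 (SE 0.10) in the FAT1 line and 1.40 (SE 0.06) in the CDKN2A line, so that both lines contribute to the difference between them.

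CDKN2A, on chromosome 9 from 21967751 to 21995300, stood at 37.8, 40 and 47.8 CPM in the CDKN2A samples and at 73.2, 67.5 and 74.8 CPM in the FAT1 samples. The GFP samples held 81.2, 99.9 and 79.1 CPM and the HcRed samples 65.4, 66.2 and 61.0 CPM. The CDKN2A samples were the lowest of the 12 and did not overlap the others. The log2 fold change of CDKN2A in its own line was -1.06 against GFP (SE 0.16, adjusted p = 1.02e-07 from limma-voom) and -0.64 against HcRed (SE 0.17, adjusted p = 0.00231 from limma-voom), while FAT1 over CDKN2A was 0.79 (SE 0.16, adjusted p = 7.5e-05 from limma-voom). Of 9 genes tested in the list of CDKN2A and its named neighbours, 6 were higher and 0 lower in the FAT1 line, with a median log2 fold change of 0.79. MTAP, a methionine salvage enzyme next to CDKN2A, stood at 78 ± 11.1 CPM in the CDKN2A line against 140 ± 13.4 in the FAT1 line (SD, n = 3 each), a log2 fold change of 0.83. CDKN2B, which encodes the related inhibitor p15INK4b, had a log2 fold change of 1 and FOCAD, focadhesin, one of 0.91. ELAVL2, an RNA-binding protein gene of the same region, had the largest, 1.95, and KLHL9, a ubiquitin ligase adaptor, the smallest of those called, 0.50, a call lost without CDKN2A replicate 3 (0.37). Of 26 other genes tested within 5 Mb of CDKN2A, 17 were lower and 0 higher in the CDKN2A line than in GFP (median -0.77). Against HcRed 12 were lower and 1 higher (median -0.57). Over all genes tested, 18.3% were lower in the CDKN2A line than in GFP and 15.3% lower than in HcRed. When the median of each chromosome arm was subtracted in each sample before the fit, a step chosen after seeing the data, the log2 fold change of CDKN2A between the 2 knockouts was 0.12 (adjusted p = 0.645 from limma-voom), and MTAP, CDKN2B, FOCAD and KLHL9 (-0.17) no longer passed either. In the same fit ELAVL2 passed at 1.28, and IFNE and DMRTA1, which had not passed before, were lower in the FAT1 line at -1.38 (adjusted p = 0.00378) and -1.13 (adjusted p = 0.0337 from limma-voom). FAT1 kept a log2 fold change of -2.55. An edit that leaves the RNA level in place would not be seen in these counts.

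**Figure D1:**
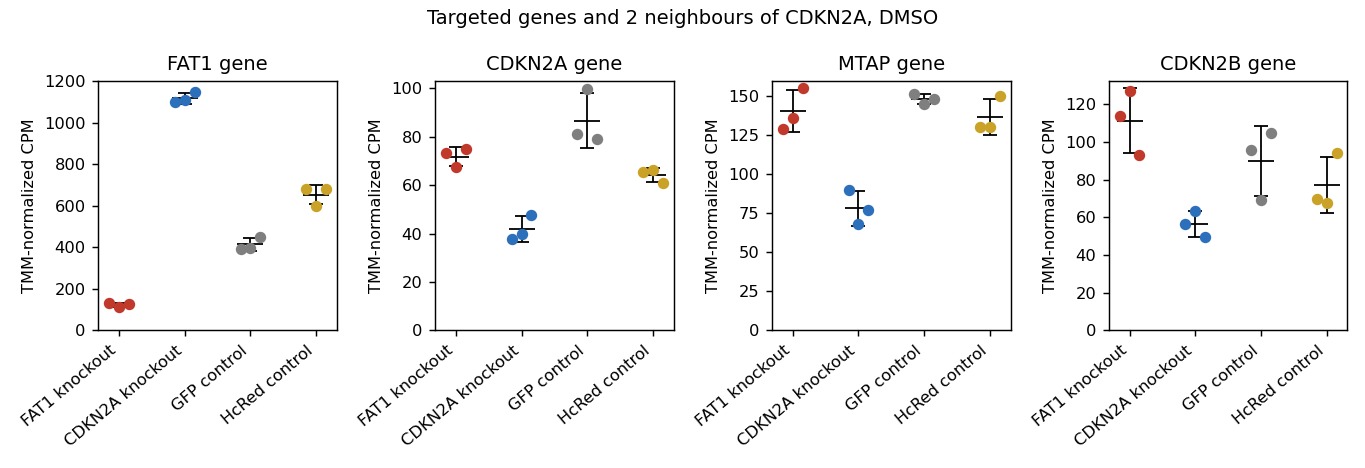
TMM-normalized CPM (y axis, from 0) of FAT1, CDKN2A, MTAP and CDKN2B in the 12 DMSO samples of the 4 lines, with points for samples and bars for the mean ± SD (n = 3). FAT1 separates all 4 lines, from 110 CPM in the lowest FAT1 sample to 1150 CPM in the highest CDKN2A sample, and MTAP is lowest in the CDKN2A line as CDKN2A is.

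Between the 2 knockouts, 5536 genes (38.3% of those tested) passed an adjusted p of 0.05. Of these, 2664 (18.4%) were higher and 2872 (19.8%) lower in the FAT1 line, and 1848 differed by at least 2-fold. The median log2 fold change over all genes tested was -0.01. Against GFP, 3752 genes (26.3%) were called in the FAT1 line, 12% of those tested as higher and 14.3% as lower, and 5408 (37.2%) in the CDKN2A line, 18.9% as higher and 18.3% as lower. Against HcRed the counts were 2772 (19.5%) in the FAT1 line, with 8.94% higher and 10.6% lower, and 4278 (29.7%) in the CDKN2A line, with 14.4% higher and 15.3% lower.

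A gene was taken as special to a knockout when it differed in the same direction from the other knockout, from GFP and from HcRed, each at an adjusted p of 0.05. By this rule 434 genes were special to the FAT1 line as higher (3.16% of the genes tested in all 3 comparisons) and 534 as lower (3.89%). In the CDKN2A line 1142 genes (8.19%) were special as higher and 1030 (7.39%) as lower. In all, 968 genes were special to FAT1 and 2172 to CDKN2A, and 2602 of the 5536 called genes were special to neither. The filter on mean counts was applied to each pair, so a gene nearly absent elsewhere entered only through the line where it was high. Of the 1142 genes higher in CDKN2A, 980 averaged 10 or more reads in the 12 samples. In the other classes these were 1013 of 1030, 419 of 434 and 517 of 534. The effect of the filter on the class sizes was not tested. Special to both lines were 97 genes that were higher in the FAT1 line and lower in the CDKN2A line than in all other lines, and 109 with the reverse order, FAT1 itself included. The genes named next were taken, in each of the 4 classes, from the 7 that changed most between the knockouts, provided that they averaged 10 or more reads in the 12 samples and did not overlap any sample of the other lines. Because the rule selected them for these differences, their values are a description.

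Of the genes special to the FAT1 line as higher, IRX2, a homeobox transcription factor gene on chromosome 5, stood at 124, 124 and 102 CPM in the FAT1 samples and at 5.28, 2.05 and 0 CPM in the CDKN2A samples. GFP lay at 89.1 ± 12.8 CPM and HcRed at 38.3 ± 3.58 CPM (SD, n = 3 each), so that IRX2 was also the leading gene special to the CDKN2A line as lower. CCND2, which encodes cyclin D2, stood at 196, 201 and 170 CPM in the FAT1 samples and at 9.68, 4.10 and 5.41 CPM in the CDKN2A samples, 29.0-fold apart. Its levels in the control lines differed, with 5.80, 10.6 and 19.4 CPM in GFP and 152, 145 and 156 CPM in HcRed. METTL7A, a methyltransferase-like gene, was 9.67-fold and PCDH1, a protocadherin of airway epithelium, 9.15-fold higher in the FAT1 line than in the CDKN2A line, and both were special to each line in opposite directions. IFIT2, an interferon-induced gene, was at 99.9, 93.2 and 116 CPM against 15, 11.3 and 21.6 CPM. FREM2, which encodes an extracellular matrix protein of epithelial basement membranes, was 6.28-fold higher and ACAA2, a mitochondrial thiolase, 5.73-fold higher in the FAT1 line.

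Genes special to the FAT1 line as lower were in part at or under the floor of 3 counts. HS6ST2, a heparan sulfate sulfotransferase, had 2 counts over the 3 FAT1 samples and 76 over the 3 CDKN2A samples, a ratio of 40.3 (95% exact counting interval 10.8 to 339). ZNF347, a zinc finger gene, had 1 and 40 counts (ratio 42.4, interval 7.19 to 1720), and KLF8, a Krüppel-like factor, had 2 and 46 (ratio 24.4, interval 6.38 to 207). These genes were nearly absent in the FAT1 line, whereas ZNF347 reached 38.0 ± 2.16 CPM in GFP and 18.2 ± 4.65 in HcRed (SD, n = 3 each). ICA1 was at 0, 1.78 and 2.05 CPM in the FAT1 samples against 27.3, 26.7 and 21.6 CPM in the CDKN2A samples. SLC12A7, a potassium chloride cotransporter, and MAP7D2, a microtubule-associated protein, were 15.4-fold and 14.3-fold lower in the FAT1 line. ETV5, an ETS transcription factor downstream of ERK, stood at 6.86, 8.88 and 8.20 CPM in the FAT1 samples and 118, 111 and 113 CPM in the CDKN2A samples, with both controls between them.

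In the CDKN2A line the leading higher genes were low in the FAT1 line. PLEKHG4, a guanine nucleotide exchange factor, had 109 counts over the 3 CDKN2A samples and 1 over the FAT1 samples, a ratio of 116 (95% exact counting interval 20.3 to 4610). DUSP6, the phosphatase that inactivates ERK, stood at 90.7, 68.7 and 89.3 CPM in the CDKN2A samples and 5.34, 0.888 and 1.02 CPM in the FAT1 samples. ROS1, a receptor tyrosine kinase, was at 82.7, 70.7 and 75.8 CPM against 4.57, 1.78 and 3.07 CPM, and at 0, 0 and 0.775 CPM in GFP. XDH, xanthine dehydrogenase, was 17.9-fold and ANK2, an ankyrin, 16.8-fold higher in the CDKN2A line. HS6ST2 was also in this class.

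Genes special to the CDKN2A line as lower included IRX2, METTL7A and PCDH1 again. ZFP3, a zinc finger gene on 17p, had 2 counts over the CDKN2A samples and 50 over the FAT1 samples, a ratio of 23.6 (95% exact counting interval 6.19 to 200). PPP1R16B, a phosphatase regulatory subunit, was 13.7-fold, IGFBP2, a secreted binding protein of insulin-like growth factors, 7.16-fold and FBXL16, an F-box protein, 6.93-fold lower in the CDKN2A line than in the FAT1 line. IGFBP2 stood at 7.04, 7.18 and 7.22 CPM in the CDKN2A samples and 56.4, 43.5 and 63.5 CPM in the FAT1 samples.

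**Figure D2:**
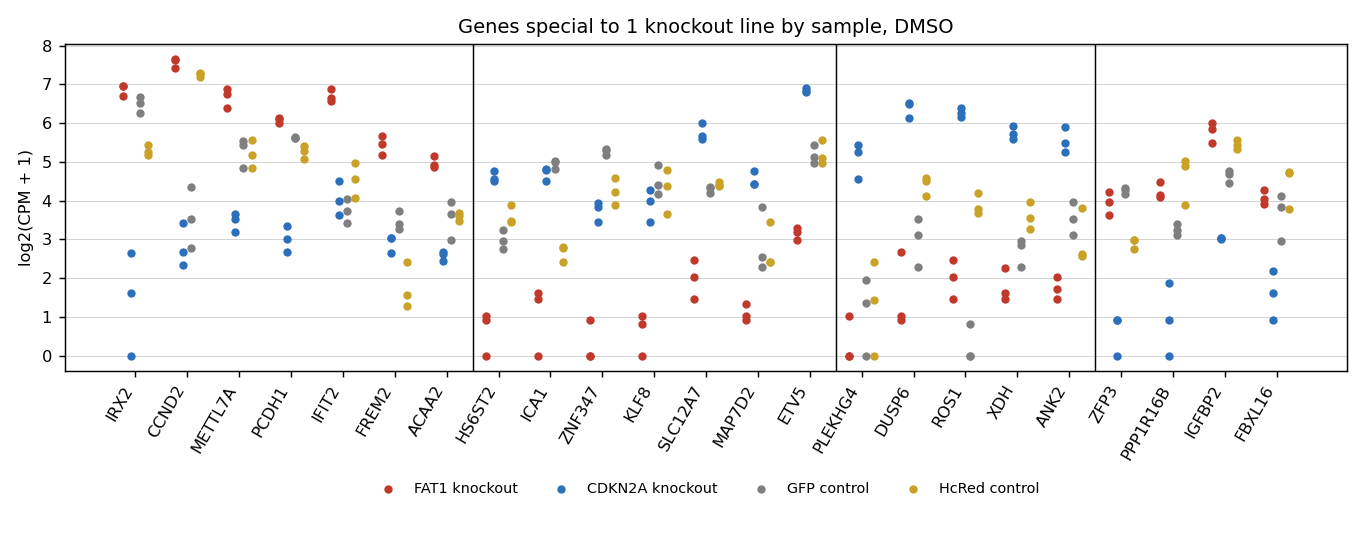
log2(CPM + 1) (y axis) of the named special genes in the 12 DMSO samples, 1 point a sample, coloured by line, with the panels from left to right for genes higher in FAT1, lower in FAT1, higher in CDKN2A and lower in CDKN2A (genes of 2 classes are drawn once). DUSP6 and ROS1 in the CDKN2A line lie above all samples of the other lines, and CCND2 in HcRed lies close below the FAT1 line.

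Named genes were next read by role, from lists of genes taken from general knowledge. The lists were chosen with earlier results of these data known, so their counts are a description. Each count is to be read against the 18.4% of all genes that were higher and the 19.8% that were lower in the FAT1 line, and a share near these is no result about the list. Counts with arm medians subtracted are to be read against 1955 higher and 1975 lower of the 13952 genes in that fit. Of 4 genes tested in the family of FAT and Dachsous cadherins, FAT1 and FAT4 were lower in the FAT1 line, and FAT4, also on 4q, had a log2 fold change of -0.83 (SE 0.12), which was -0.20 with arm medians subtracted (adjusted p = 0.242 from limma-voom). FAT2, which lies on 5q, was at 616, 566 and 660 CPM in the FAT1 samples and 686, 669 and 637 CPM in the CDKN2A samples and did not pass the test (log2 fold change -0.11, adjusted p = 0.165 from limma-voom), though it passed with arm medians subtracted (-0.31). Among 19 tested Hippo kinases, adaptors and TEAD factors, 5 were higher and 4 lower in the FAT1 line. AMOT, the angiomotin that holds YAP at junctions, had the largest change, with 47.3, 24.9 and 27.7 CPM against 4.40, 1.03 and 5.41 CPM in the CDKN2A samples (log2 fold change 3.20, SE 0.49). YAP1 on 11q had a log2 fold change of -0.66 and WWTR1 on 3q, which encodes TAZ, one of -0.75, but with arm medians subtracted these were -0.20 (adjusted p = 0.0791) and 0.01 (adjusted p = 0.972, limma-voom).

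Of 22 tested YAP and TAZ target genes, 9 were higher in the CDKN2A line, 3 in the FAT1 line and 10 did not pass, with a median log2 fold change of -0.49 against -0.01 over all genes. CTGF, a matricellular target, stood at 40.5, 25.6 and 22.6 CPM in the CDKN2A samples and 0.762, 4.44 and 7.17 CPM in the FAT1 samples, and CYR61 had a log2 fold change of -1.13. NT5E, the ecto-nucleotidase CD73, separated both lines from the controls, with 382 ± 49.1 CPM in the CDKN2A line, 78.2 ± 8.86 in the FAT1 line, 174 ± 22.1 in GFP and 140 ± 7.21 in HcRed (SD, n = 3 each). Against GFP, 4 of 21 targets were higher and 3 lower in the FAT1 line, while 10 were higher and 3 lower in the CDKN2A line. The members called between the knockouts thus lay mainly on the side of the CDKN2A line.

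Cell cycle genes around p16INK4a were shifted in both directions. Among 26 tested D cyclins, CDK4 and CDK6, CDK inhibitors and RB family members, 10 were higher and 6 lower in the FAT1 line, with a median log2 fold change of 0.07. CCND1, which encodes cyclin D1, stood at 195, 189 and 198 CPM in the CDKN2A samples and 31.3, 51.5 and 38.9 CPM in the FAT1 samples, opposite to CCND2. CCND3, cyclin D3, was also lower in the FAT1 line (-0.53, adjusted p = 0.0122 from limma-voom), a call lost without FAT1 replicate 1 (-0.29) or CDKN2A replicate 2 (-0.48). CDKN1B, which encodes p27KIP1, was 3.22-fold higher in the FAT1 line, special to both lines, and CDKN1C, which encodes p57KIP2, was 5.22-fold higher with 114, 39.1 and 51.2 CPM against 9.68, 11.3 and 15.3 CPM. RB1 had a log2 fold change of 0.56 and was lower in the CDKN2A line than in GFP, at -1.16. CDK6, on 7q, had one of 0.61 and lay at -1.08 in the CDKN2A line against GFP, but with arm medians subtracted its sign turned (-0.10, adjusted p = 0.495 from limma-voom). CDK4 (0.38, adjusted p = 0.0935) and CDKN1A (-0.13, adjusted p = 0.261), which encodes p21CIP1, did not pass the test by limma-voom, although both passed without FAT1 replicate 1 (0.61 and -0.24).

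Of 37 DNA replication genes, 12 were higher and 10 lower in the FAT1 line, and of 38 mitosis genes, 12 and 8, with medians of 0.04 and 0.11. MKI67, the proliferation marker, stood at 1700, 1970 and 1720 CPM in the FAT1 samples against 1170, 1100 and 1140 CPM in the CDKN2A samples (log2 fold change 0.66). Its log2 fold change with arm medians subtracted was 0.18. Of 28 p53 target genes, 8 were higher and 4 lower in the FAT1 line, 12 called in all, near the 38.3% of all genes. MDM2, the ubiquitin ligase of p53 and a p53 target itself, was special to both lines, at 387, 326 and 304 CPM in the FAT1 samples and 200, 198 and 211 CPM in the CDKN2A samples.

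Genes downstream of ERK lay on the side of the CDKN2A line. ERK is the last kinase of the cascade below growth factor receptors and RAS, and its activity induces immediate early transcription factors together with feedback inhibitors of the DUSP and SPRY families. Of 24 tested ERK feedback and early genes, 14 were lower in the FAT1 line and 0 higher, with a median log2 fold change of -1.05, and 13 of the 14 were special to the CDKN2A line as higher. After DUSP6, SPRY4, a Sprouty inhibitor of RAS signalling, had the largest change, with 20.2, 18.5 and 21.6 CPM in the CDKN2A samples and 2.29, 0.888 and 0 CPM in the FAT1 samples. ETV4, an ETS factor like ETV5, was at 29.0, 26.7 and 24.4 CPM against 4.57, 1.78 and 7.17 CPM, and FOSL1, an AP-1 subunit, was 6.25-fold higher in the CDKN2A line. MYC stood at 143, 144 and 164 CPM in the CDKN2A samples, 37.4, 44.4 and 47.1 CPM in the FAT1 samples, 34.3 ± 9.16 in GFP and 93.4 ± 2.86 in HcRed (SD, n = 3 each). For all of these the CDKN2A samples lay above every sample of the other 3 lines.

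Compared with GFP, 17 of 24 ERK output genes were higher in the CDKN2A line and 0 lower (median log2 fold change 1.10), and in the FAT1 line 6 were higher and 2 lower (0.12). Compared with HcRed, 15 were higher and 0 lower in the CDKN2A line (0.62), while 2 were higher and 9 lower in the FAT1 line (-0.43). Over all genes 18.9% were higher in the CDKN2A line and 12% in the FAT1 line than in GFP, and 14.4% were higher in the CDKN2A line and 10.6% lower in the FAT1 line than in HcRed. The 4 comparisons share samples. With arm medians subtracted, 14 of the 24 were lower and 1 higher in the FAT1 line, with a median of -0.92.

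Ligands of the EGF receptor, which act upstream of ERK, were also mostly higher in the CDKN2A line. Of 13 tested ligands and ERBB receptors, 8 were lower and 2 higher in the FAT1 line, with a median log2 fold change of -1.17. EREG, epiregulin, was at 137, 116 and 128 CPM in the CDKN2A samples and 22.9, 15.1 and 9.22 CPM in the FAT1 samples, and at 44 ± 1.61 CPM in HcRed (SD, n = 3). EGF itself was near the floor, at 0 counts in all FAT1 samples and 3.08 to 4.40 CPM in the CDKN2A samples, and BTC, betacellulin, was at 0 to 1.02 CPM against 6.16 to 10.8 CPM. HBEGF, heparin-binding EGF, was at 15 to 18.5 CPM against 3.07 to 9.76 CPM. ERBB3, a receptor, was in the other direction, at a log2 fold change of 1.02. NRG1, a ligand of ERBB3, must be read with care: 2 CDKN2A samples held 28.2 and 36.9 CPM and the third 259 CPM, while the FAT1 samples held 22.1 to 24.0 CPM. Its log2 fold change of -1.48 (adjusted p = 0.00124) was -0.45 without that library, replicate 3 (adjusted p = 0.171, limma-voom), and the DESeq2 Wald test did not call it (adjusted p = 0.0852). The series also holds a line that overexpresses NRG1, and the origin of these reads was not tested.

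The interferon-stimulated genes that were called lay mainly on the side of the FAT1 line. Interferons activate transcription factors that bind the interferon-stimulated response element (ISRE) in promoters, and their targets include the RNA-binding IFIT proteins and the RNA sensor encoded by DDX58. Of 32 tested genes, 12 were higher and 2 lower in the FAT1 line, with a median log2 fold change of 0.40, and 9 of the 12 were special to it. The other 18 did not pass, and the 2 lower were HERC6 (-0.64) and HERC5 (-0.55). Promoters are shown for 3 of the genes called higher, those with the largest change that hold the motif GAAANNGAAA on either strand. Each is the 250 bases before the gene's start from RefSeq on GRCh38.p14, plus strand, with the motif in capitals (reading TTTCNNTTTC where it lies on the minus strand). IFI44L is at chr1:78620198-78620447, IFIT3 at chr10:89327747-89327996 and IFIT1 at chr10:89392373-89392622.
IFI44L: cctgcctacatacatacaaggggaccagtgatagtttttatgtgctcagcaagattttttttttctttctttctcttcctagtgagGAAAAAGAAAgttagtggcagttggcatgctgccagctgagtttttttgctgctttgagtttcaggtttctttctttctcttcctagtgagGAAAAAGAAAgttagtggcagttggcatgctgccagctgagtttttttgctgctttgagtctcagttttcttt
IFIT3: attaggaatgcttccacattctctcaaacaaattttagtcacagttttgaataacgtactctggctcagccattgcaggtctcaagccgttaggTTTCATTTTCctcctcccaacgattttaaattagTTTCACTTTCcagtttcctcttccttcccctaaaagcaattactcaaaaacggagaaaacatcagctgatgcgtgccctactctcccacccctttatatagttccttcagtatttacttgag
IFIT1: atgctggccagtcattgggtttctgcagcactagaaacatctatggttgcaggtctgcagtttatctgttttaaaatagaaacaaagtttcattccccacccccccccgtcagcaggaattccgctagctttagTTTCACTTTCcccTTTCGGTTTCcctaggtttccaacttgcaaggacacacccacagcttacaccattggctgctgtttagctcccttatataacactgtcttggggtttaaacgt
Each of these 3 windows held 2 matches, which in IFIT1 start 116 and 103 bases before the gene's start. The same motif was present in 3.07% of all 27305 promoter windows of this length, in 15 of the 24 interferon-stimulated genes with a window (62.5%), in 7 of 9 of those called higher in the FAT1 line and in 8 of the 15 others. IFIT2, OASL and DDX58, also called higher in the FAT1 line, had no window and were not searched. A match is a description of the sequence and does not show binding.

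IFIT1 stood at 45, 47.9 and 35.9 CPM in the FAT1 samples and 8.80, 10.3 and 14.4 CPM in the CDKN2A samples, with 3.67 ± 2.24 CPM in GFP and 16.8 ± 4.44 in HcRed (SD, n = 3 each). IFIT3 was at 83.1, 67.5 and 68.6 CPM against 18.5, 18.5 and 18.9 CPM. IFI44L was low throughout, at 13.7, 5.33 and 21.5 CPM in the FAT1 samples and 0 to 2.71 CPM in the other knockout. In all 3 genes, as in IFIT2, the FAT1 samples lay above the other 9 samples. IFI44 (3.20-fold), OASL (3.99-fold), a relative of the oligoadenylate synthetases, and DDX58 (3.05-fold) were likewise higher in the FAT1 line than in the CDKN2A line. Against GFP, 17 of 30 genes were higher and 1 lower in the FAT1 line, and 11 were higher and 3 lower in the CDKN2A line, so that the GFP line had the lower levels of several of them. Against HcRed, 11 of 31 were higher and 1 lower in the FAT1 line, and 3 were higher and 5 lower in the CDKN2A line. Over all genes, 12% in the FAT1 line and 18.9% in the CDKN2A line were higher than in GFP. The shares higher than in HcRed were 8.94% and 14.4%. IFIT1, IFIT2 and IFIT3 are neighbours on 10q, where the median gene had a log2 fold change of 0.46, and with arm medians subtracted 13 of the 32 genes were higher and 1 lower. Of 8 tested MHC class I presentation genes, 2 were higher and 2 lower in the FAT1 line.

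**Figure D3:**
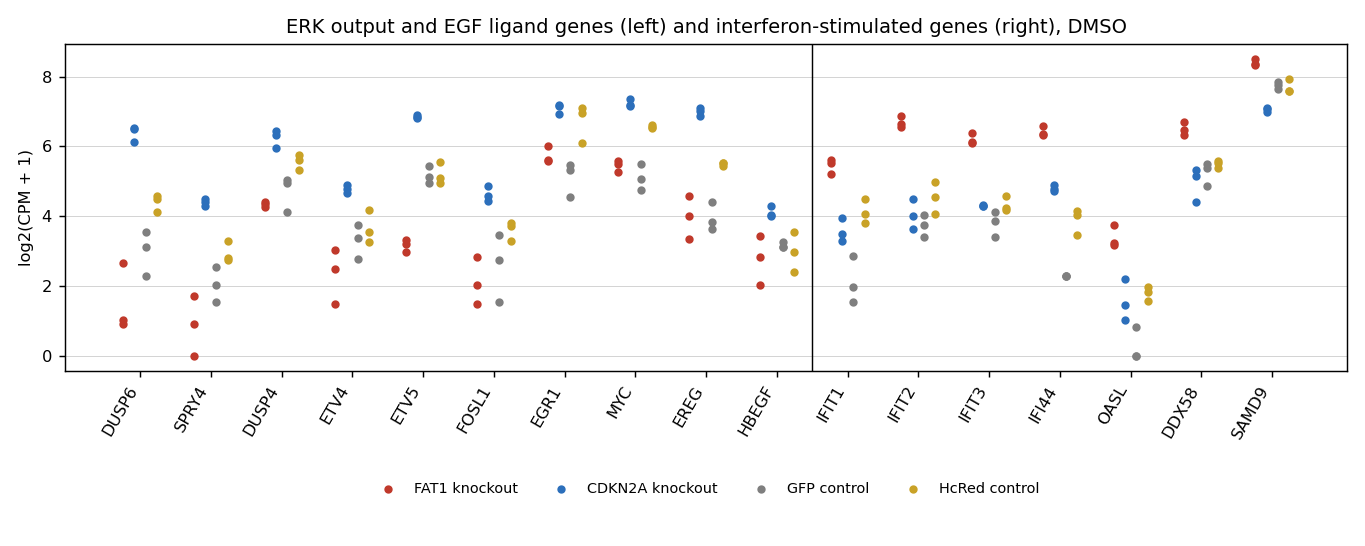
log2(CPM + 1) (y axis) of 10 ERK output and EGF ligand genes and 7 interferon-stimulated genes in the 12 DMSO samples, 1 point a sample, coloured by line. The CDKN2A samples are the highest in the ERK and EGF ligand genes except EGR1, where HcRed samples overlap them, and the FAT1 samples are the highest in IFIT1 through SAMD9.

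The epithelial program differed in parts. Of 14 airway basal markers, 10 were lower and 3 higher in the FAT1 line. KRT14, a keratin of basal cells, stood at 57.9, 36.4 and 44.1 CPM in the FAT1 samples and 288, 281 and 290 CPM in the CDKN2A samples, with 396 ± 31.4 in GFP and 540 ± 70.5 in HcRed (SD, n = 3 each). Its partner KRT5 was at 2990 to 3020 CPM in the FAT1 samples against 2730 to 2920 CPM (log2 fold change 0.11), a call that edgeR did not make (adjusted p = 0.137). TP63, the basal transcription factor on 3q, had a log2 fold change of -0.35. With arm medians subtracted both turned sign and passed, KRT5 at -0.23 and TP63 at 0.41, so their direction rests on the scaling. Of 15 tested keratins 4 were lower and 3 higher in the FAT1 line, and KRT16, a stress keratin, was 3.94-fold higher in the CDKN2A line. KRT14 and KRT16 have close copies, between which counting could split reads. Among 11 tested cornified envelope and squamous genes 4 were higher and 1 lower in the FAT1 line. DSG3, a desmosomal cadherin, stood at 306, 302 and 304 CPM in the FAT1 samples and 85.4, 109 and 103 CPM in the CDKN2A samples, and SERPINB13 had a log2 fold change of 2.01. Of 13 classic cadherins, catenins and nectins 5 were higher and 2 lower, with the adhesion gene NECTIN4 at 1.70.

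Genes of adhesion to the basement membrane lay mainly on the side of the CDKN2A line. All 9 hemidesmosome and laminin-332 genes tested passed, 7 lower and 2 higher in the FAT1 line, with PLEC at a log2 fold change of -0.86 and COL17A1, the collagen of hemidesmosomes, at 0.70. Of 14 integrin chains 9 were lower and 2 higher, and ITGA3, the laminin receptor chain, stood at 478, 538 and 480 CPM against 1060, 1000 and 1060 CPM in the CDKN2A line. ITGB2, an integrin chain of leukocytes, was called near the floor, at 0 to 1.78 CPM in the FAT1 samples and 6.15 to 11.4 CPM in the CDKN2A samples. All 8 called S100 genes of 11 tested were lower in the FAT1 line, and S100A2 was at 262, 288 and 337 CPM against 711, 730 and 752 CPM. With arm medians subtracted 5 of the 11 were called, all lower. Of 16 collagen chains 6 were lower and 2 higher, of 15 mesenchymal genes 4 were lower and 0 higher, and of 15 matrix metalloproteases and plasminogen genes 3 were lower and 4 higher. VIM, vimentin, did not pass the test (-0.09, adjusted p = 0.826 from limma-voom). Of 13 IL-1 family and chemokine genes 4 were lower and 0 higher, IL1A among them at -1.73.

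Receptors and ligands of other pathways were mixed. In the Notch list 3 of 15 were higher and 4 lower in the FAT1 line. NOTCH1 stood at 252, 203 and 198 CPM in the FAT1 samples and 84.5, 84.1 and 89.3 CPM in the CDKN2A samples, above both controls, and NOTCH3 was lower in the CDKN2A line, at 11.4, 10.3 and 24.4 CPM against 127, 76.3 and 72.7 CPM. Of 29 WNT and planar polarity genes 6 were higher and 6 lower, with CELSR3, a planar polarity cadherin, at 2.67. Of 22 TGF-beta and activin genes 9 were lower and 3 higher, led by LTBP1, which stores latent TGF-beta, at -1.85. Of 7 HOX genes tested, HOXA10 was the only one called, at 0 to 1.78 CPM in the FAT1 samples and 4.10 to 11.7 CPM in the CDKN2A samples, and the call was lost without CDKN2A replicate 3 (adjusted p = 0.0871) or FAT1 replicate 3 (adjusted p = 0.0711, limma-voom).

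Several metabolic lists were one-sided. Of 28 cholesterol and fatty acid synthesis genes 22 were lower and 2 higher in the FAT1 line, with a median log2 fold change of -0.67, and 7 were special to the FAT1 line as lower and 14 to the CDKN2A line as higher. MSMO1, a sterol methyl oxidase, stood at 99.1, 118 and 111 CPM in the FAT1 samples, 481, 445 and 492 CPM in the CDKN2A samples and 202 ± 14.9 in GFP (SD, n = 3), so that the controls lay between the knockouts. HMGCS1, which makes the precursor of mevalonate synthesis, had a log2 fold change of -1.11. With arm medians subtracted 20 genes were lower and 2 higher.

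Of 24 NRF2 target genes 16 were lower and 2 higher in the FAT1 line (median -0.79). SLC7A11, the cystine transporter, stood at 230, 169 and 158 CPM against 609, 571 and 588 CPM, and the ferritin chains FTL and FTH1 were 2.91-fold and 2.60-fold higher in the CDKN2A line. NQO1, a quinone reductase, had a log2 fold change of -0.66 and GCLM, of glutathione synthesis, one of -0.01 (adjusted p = 0.964, limma-voom). With arm medians subtracted 11 of the 24 were lower and 1 higher. Of 7 aryl hydrocarbon receptor targets 5 were lower and 0 higher, of 20 ATF4 targets 7 and 4, and of 24 glycolysis and hypoxia genes 10 and 5.

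Of 44 cytosolic ribosomal protein genes 33 were higher and 2 lower in the FAT1 line, with a median of 0.42, and 22 were special to the FAT1 line as higher. RPS6 stood at 1550, 1690 and 1690 CPM against 684, 653 and 657 CPM, a log2 fold change of 1.31 that was 0.64 with the median of its arm, 9p, subtracted. Against GFP 31 of these 44 genes were higher and 0 lower in the FAT1 line, and 10 were higher and 12 lower in the CDKN2A line. Ribosomal protein genes have many processed copies, so the counting of their reads is uncertain. Of 28 nuclear respiratory chain genes 11 were higher and 3 lower.

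**Figure D4:**
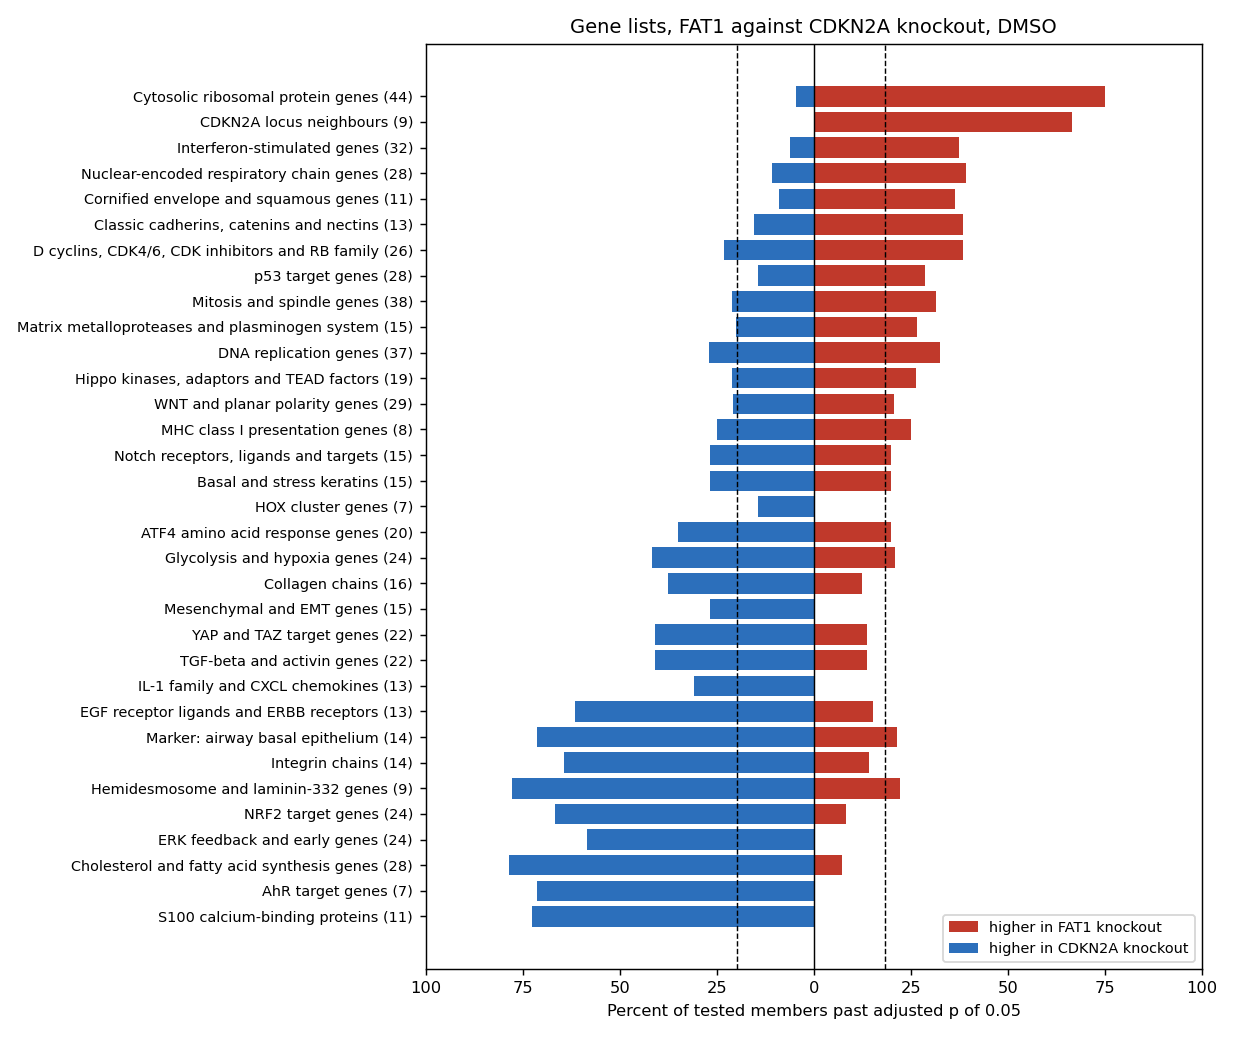
Percent of the tested members of each gene list (x axis) past an adjusted p of 0.05, to the right for higher in the FAT1 knockout and to the left for higher in the CDKN2A knockout, with the number tested in parentheses and lists under 7 tested genes left out. Dashed lines mark all genes tested, 18.4% higher and 19.8% lower in the FAT1 line. The ribosomal protein bar reaches furthest to the right and the cholesterol bar furthest to the left.

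The differences were also ordered by position in the genome. For 13952 of the tested genes (96.4%) a chromosome arm was known from GENCODE models on GRCh37, and the median log2 fold change of FAT1 over CDKN2A was taken for 41 arms. It ranged from -0.78 on 3q, -0.72 on 4p and -0.63 on 4q to 0.68 on 9p, 0.69 on 12p and 0.72 on 7q. On 3q 254 of 434 genes were lower in the FAT1 line and 9 higher, on 4q 200 of 353 and 4, on 7q 15 of 429 were lower and 237 higher, and on 9p 8 of 160 and 81. The arms above 0.4 in size, 7 upward and 6 downward, held 15.2% and 13.7% of the tested genes. They held 38.0% of the genes called higher and 34.6% of those called lower in the FAT1 line. These arms were picked by the fold changes of the same fit, so larger shares of its calls follow from the choice. Among genes that averaged 10 or more reads, the arm accounted for 27.1% of the variance of the log2 fold change across genes. DNA copy number was not measured, and its part in the result was not tested.

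The line that departed from the controls varied with the arm. On 9p, which carries CDKN2A, the median was -0.69 for the CDKN2A line against GFP and 0.01 for the FAT1 line against GFP. On 7q these were -0.57 and 0.13. On 4q, which carries FAT1, the FAT1 line lay at 0.03 from GFP and -0.35 from HcRed, and the CDKN2A line at 0.68 and 0.24, so that the higher FAT1 count of the CDKN2A line came with higher counts along the arm. On 4p the FAT1 line was the one below GFP and HcRed. Between the knockouts, 19 of 28 other tested genes within 5 Mb of FAT1 were lower and 1 higher in the FAT1 line (median -0.79). Against GFP 2 of 25 were lower and 4 higher (0.04), and against HcRed 7 of 24 were lower and 1 higher (-0.28). Over all genes tested, 19.8%, 14.3% and 10.6% were lower in the FAT1 line in these comparisons, in the same order. FRG1, distal to FAT1 at the end of 4q and picked out after its values were seen, was at 3.81, 7.99 and 3.07 CPM in the FAT1 samples and at 18.6 to 44.3 CPM in the other 9 samples.

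For single samples, the level of an arm was taken as the median over its genes of the difference in log2 CPM from the mean of the 4 lines. On 9p it was 0.24, 0.18 and 0.17 in the FAT1 samples and -0.39, -0.48 and -0.47 in the CDKN2A samples, and on 3q it was -0.25, -0.24 and -0.29 against 0.46, 0.40 and 0.43. The 3 FAT1 samples did not overlap the 3 CDKN2A samples on 40 of 41 arms, 20 above and 20 below. The largest SD within a line was 0.0643 on this scale.

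Within several arms the level changed in steps. Medians were taken over bins of 10 Mb with at least 20 tested genes, a division chosen after the arms had been seen. On 17p, the 155 genes from 0 to 10 Mb had a median of 0.85 and the 75 genes from 10 to 20 Mb one of -0.61. On 11q the bin from 110 to 120 Mb lay at -0.69 (69 genes) and the next, to 130 Mb, at 0.62 (49 genes), and on 3q the bin from 120 to 130 Mb lay at -0.25 and the next at -0.93. On 17p the FAT1 line was at 0.61 and the CDKN2A line at -0.18 from GFP in the outer bin, and at 0.26 and 0.86 in the inner bin. Of 254 bins over the genome, 23 had a median above 0.5 and 30 one below -0.5.

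**Figure D5:**
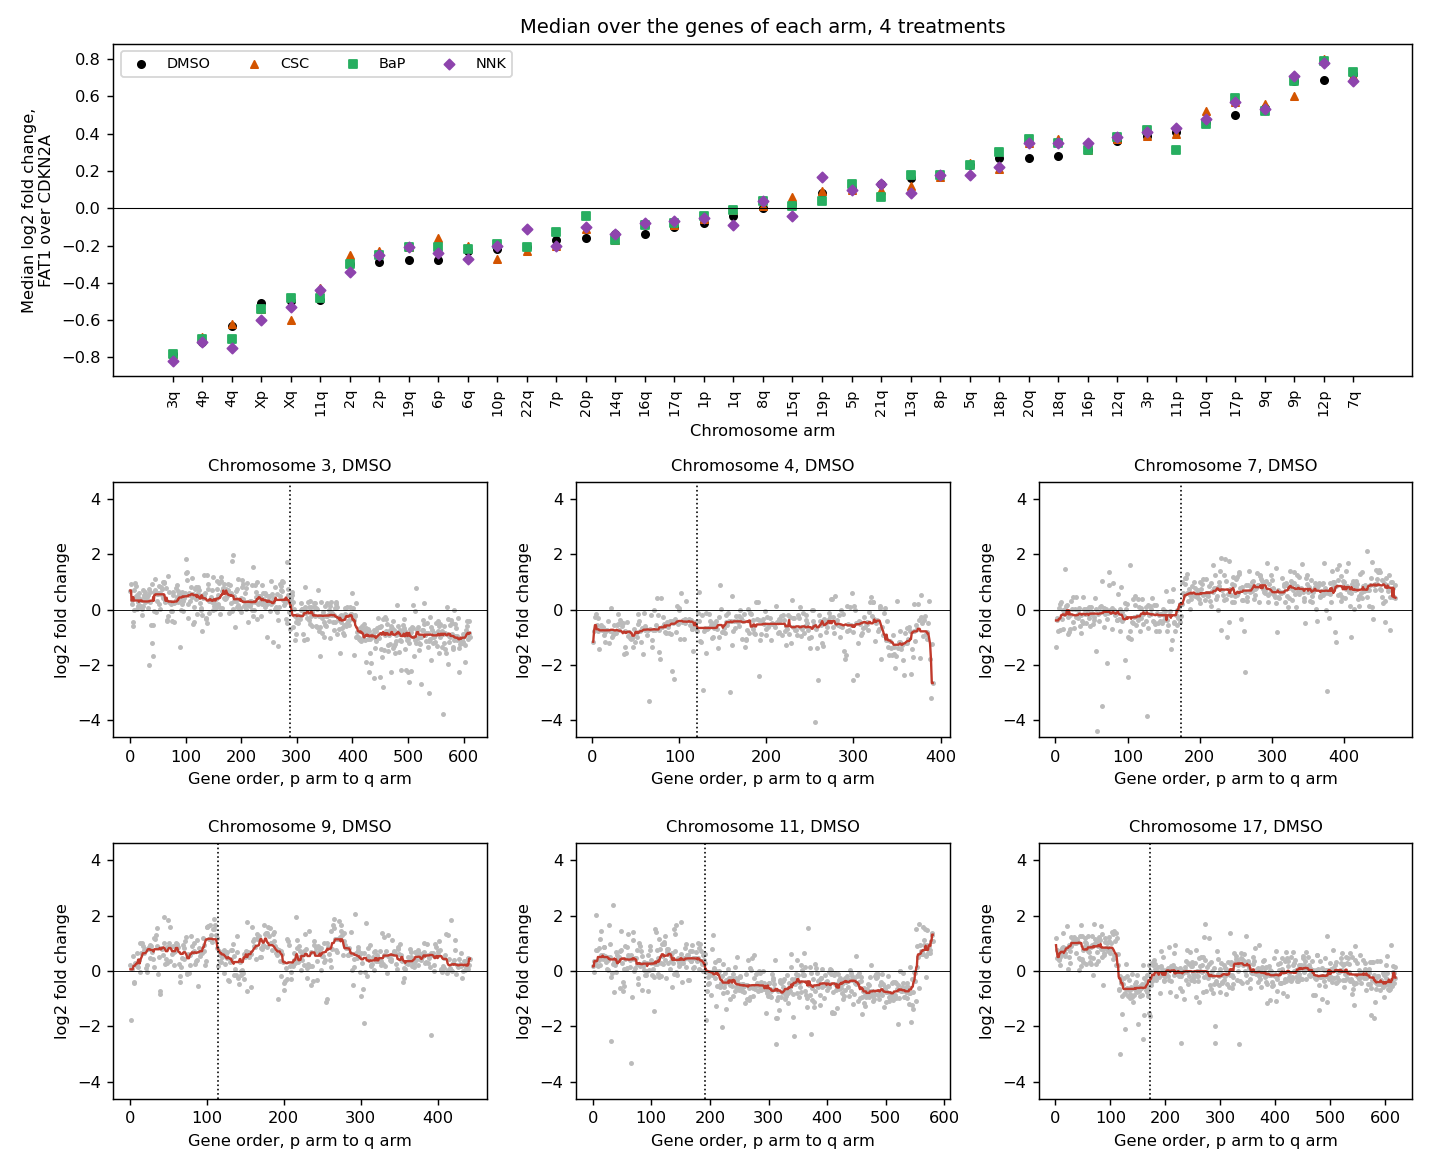
Top, median log2 fold change of FAT1 over CDKN2A (y axis) for 41 chromosome arms in order of the DMSO value, with 1 symbol per treatment. Below, log2 fold change in DMSO of genes averaging 10 or more reads (grey points) in their order along 6 chromosomes, with the running median over 25 genes in red and the centromere as a dotted line. The symbols of the 4 treatments lie close together on each arm, and the red line steps on chromosomes 3, 7, 11 and 17.

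The treated samples offer a repeat of the comparison in samples that were not used above. In CSC 4526 genes (32.7% of those tested) were called between the 2 lines, 16.1% as higher and 16.6% as lower in the FAT1 line. In BaP these were 4556 (32.4%), with 15.9% higher and 16.4% lower, and in NNK 4936 (34.1%), with 17.6% higher and 16.5% lower. Of the DMSO calls tested there, 64.9% were called in the same direction in CSC, 65.3% in BaP and 68.8% in NNK, which made up 78%, 78.3% and 76.5% of the calls in each treatment, and 6, 2 and 3 genes were called in the opposite direction. Of all DMSO calls, 47.4% were called in the same direction in all 3 treatments. For the special genes this share was 70.7% (higher in FAT1), 62.5% (lower in FAT1), 66.6% (higher in CDKN2A) and 66.9% (lower in CDKN2A). The special genes are part of those calls and had to pass 3 tests in DMSO, so these shares are not an even comparison. CCND2 had log2 fold changes of 5.65 in CSC, 5.40 in BaP and 6.02 in NNK, and KRT14 ones of -2.99, -3 and -2.64. FAT1 itself was at -3.22, -3.28 and -3.20 and CDKN2A at 0.97, 1.11 and 1.14.

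DUSP6 was at -2.41 in CSC, -3.62 in BaP and -3.45 in NNK, against -5.10 in DMSO, and the ERK list had 10, 12 and 11 of 24 genes lower and 3, 2 and 2 higher in the FAT1 line. The median of the list was closer to 0 than in DMSO (-1.05), at -0.21 in CSC, -0.25 in BaP and -0.41 in NNK, and this difference of medians was not tested. Interferon-stimulated genes had 12 of 29, 13 of 30 and 12 of 30 higher and 1, 0 and 1 lower. Cholesterol genes had 18, 22 and 17 of 28 lower. The arm medians in CSC, BaP and NNK differed from those in DMSO by at most 0.12, and their Pearson correlation with DMSO across 41 arms was 0.992, 0.993 and 0.992. The arms share the libraries of each treatment, and no p is given.

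Whether the difference between the lines itself depended on the treatment was tested by the interaction of line and treatment over the 24 knockout samples. It was past 0.05 for 30 of 14355 genes (0.209%). Of the 14355 genes tested, 2934 were special, and so were 22 of the 30. The special genes were chosen on the DMSO samples that also enter this test, so that count is no result about them. Of the 26 named genes (FAT1, CDKN2A and the leading special genes), 0 were called and 5 had an unadjusted p under 0.05 by limma-voom. DUSP6 was the nearest of them, with an adjusted p of 0.0591 by limma-voom, and it was the 1 named gene called by edgeR (0.00557) and by the DESeq2 likelihood ratio test (0.0294). Over all genes the DESeq2 test called 14 and edgeR 29. The members of the gene lists among them are given under the results for a closer look.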

How the data were processed

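Gene-level read counts were deposited by the authors as raw, unnormalized integers, 1 file a sample with 27978 gene symbols. The reads had been trimmed with cutadapt 1.12, aligned to hg19 with STAR 2.5.2b and counted over RefSeq genes with featureCounts. FastQC 0.11.5 is also listed in the submitters' processing notes. Whether counting used strand is not given in the sources used here, so overlapping and antisense genes cannot be separated. Low depth and pooled barcoding limit genes of few reads: the 12 DMSO samples held between 694898 and 1333632 counts.

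Groups were taken from the labels. Genes with a mean count above 1 over the samples fitted were normalized by TMM (edgeR 4.0.16) and tested by limma-voom (limma 3.58.1, R 4.3.3), 2-sided, in fits of only the groups compared, at a Benjamini-Hochberg adjusted p of 0.05. The interaction of line and treatment was an F test over 24 samples. Named genes were the targets, 7 genes for each class of special genes as given in the text, and of each gene list at most 5 called members with the largest change, besides members given for their role. Some genes that meet these rules are not reported here. The members and lists were chosen with earlier results of these data known. XIST and Y-linked genes were left out. Arms were assigned from GENCODE models on GRCh37, which matched 25085 symbols (89.7%). Promoters are RefSeq on GRCh38.p14.

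Each result was also computed with DESeq2 1.42.0, with quasi-likelihood fits in edgeR, with DESeq2 size factors, with other filters on low counts, the 10000 most variable genes, 1 fit of all lines, a correction for GC content and length, the replicate block, without each sample in turn, and with stricter thresholds for the special genes. Subtraction of arm medians was added after seeing the data. The fits were tested first on simulated counts with a common dispersion. Of 200 genes changed 2-fold between the knockouts, limma-voom recovered 74.5% and DESeq2 58%. The interaction test recovered 57% of 200 genes changed 2-fold in the FAT1 CSC samples. Unchanged genes made up 3.87% of the limma-voom calls between the knockouts and 8.06% of the interaction calls. With 200 genes changed in the simulation and 38.3% of genes called between the knockouts in the data, these rates need not hold for the reported fits.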

Additional observations from a re-analysis of the deposited data

Results flagged for a closer look

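Among list members and named genes reported here, 15 differed between treatments in the difference between the 2 knockouts, by the interaction of line and treatment over 24 samples (limma-voom, Benjamini-Hochberg adjusted over 14355 genes). Values are log2 fold changes of FAT1 over CDKN2A, and no explanation was tested.

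In 3 genes downstream of ERK the difference was largest in DMSO among the 4 treatments. EGR1, an early growth response factor, had -1.36 in DMSO, 0.28 in CSC, -0.24 in BaP and -0.26 in NNK (adjusted p of the interaction 3.52e-09). DUSP4, a MAP kinase phosphatase, had -1.93, -0.55, -0.59 and -0.19 in the same order (2.02e-05), and MYC had -1.80, -0.87, -0.79 and -0.53 (0.000211). The YAP target CYR61 had -1.13, -0.52, -0.72 and -0.13 (0.00597).

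Among aryl hydrocarbon receptor targets, CYP1A1, which oxidizes polycyclic hydrocarbons, was higher in the CDKN2A line in DMSO (-1.16) and NNK (-0.83) and in the FAT1 line in CSC (1.27) and BaP (0.85), with an adjusted p of 0.000114. CYP1B1 had -0.85 in DMSO, 0.15 in CSC, -0.03 in BaP and -1.20 in NNK (1.18e-07).

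In lipid synthesis, the desaturase SCD had -0.15 in DMSO, 0.20 in CSC, -0.50 in BaP and 0.19 in NNK (8.18e-17). In the same order the fatty acid synthase FASN had -0.68, -0.46, -0.84 and -0.14 (1.92e-08), and the sterol desaturase SC5D had -1.37, -1.95, -1.22 and -1.96 (0.034).

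Of the others, given in the same order, the amino acid transporter SLC7A5 had -0.09, 0.41, -0.07 and 0.02 (8.04e-09). FAT2, the paralog of FAT1, had -0.11, 0.14, -0.54 and -0.14 (1.26e-05). The integrin chain ITGA3 had -1.05, -0.67, -1.18 and -0.75 (0.000402) and ITGB4 had -0.59, -0.11, -0.59 and -0.36 (0.0103). CDKN1A had -0.13, -0.72, -0.51 and -0.19 (0.0222), and the stress gene NDRG1 had -0.32, -1.02, -0.63 and -0.36 (0.0487).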

How the results depend on the processing

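The DESeq2 Wald test lowered the counts of called genes to 3517 for FAT1 against CDKN2A in DMSO, 2489 in CSC, 2461 in BaP and 2860 in NNK, to 1983 and 1357 for FAT1 against GFP and HcRed, to 3402 and 2370 for CDKN2A against GFP and HcRed, to 434 genes special to FAT1 and 1177 special to CDKN2A, and by its likelihood ratio test to 14 genes for the interaction. With arm medians subtracted there were 3930 genes for FAT1 against CDKN2A in DMSO and 4258 for CDKN2A against GFP. For FAT1 against CDKN2A the main fit had 5536. Among the 13952 genes with a known arm it had 2625 higher and 2842 lower, and the subtraction left 1955 and 1975. The same step left 2180 and 1697 genes for FAT1 against GFP and HcRed, 2715 for CDKN2A against HcRed, and 525 and 1353 special genes. A threshold of 0.01 left 566 and 1438 special genes and a fold change of at least 2 left 145 and 401. Among the 10000 most variable genes the interaction called 18. The cause of these differences was not tested, except that the stricter rules keep fewer genes by construction.

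Leaving out 1 sample gave 4729 to 4984 genes for FAT1 against CDKN2A in DMSO, 3441 to 4034 in CSC, 3039 to 4175 in BaP, 3781 to 4779 in NNK, 2973 to 3272 for FAT1 against GFP, 2124 to 2431 against HcRed, 4620 to 4956 for CDKN2A against GFP, 3537 to 3882 against HcRed, 778 to 927 genes special to FAT1, 1794 to 2098 special to CDKN2A and 20 to 43 for the interaction. BaP was lowest without FAT1 replicate 1 and the interaction lowest without FAT1 CSC replicate 3.

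Subtraction of arm medians turned the sign of 5 of the genes refitted, WWTR1 (0.01), CDK6 (-0.10), KRT5 (-0.23), KLHL9 (-0.17) and TP63 (0.41). Of 422 refits of the 25 named genes reported, 421 kept the call, and CDKN2A lost it with arm medians subtracted. Apart from the targets, these genes were picked for large differences without overlap in the same samples, which favours keeping the call. Of 3018 refits of 180 other genes, 2822 kept it, 180 lost it, 5 turned sign and 11 gained a call. The losses were spread over 55 of these 180 genes. Leaving out a sample gave 88 of the losses, DESeq2 gave 34 and subtraction of arm medians gave 33.

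Same-numbered samples did not deviate together in expression (correlations -0.041 to 0.0291), and they were not paired in the main fits. Read depth did follow the number in part. In both lines replicate 1 had the most reads in BaP and the fewest in NNK. Whether the numbers mark a batch was not tested further. With the replicate block 5678 genes were called between the knockouts in DMSO, 4114 in CSC, 5605 in BaP and 3718 in NNK. Without it these counts were 5536, 4526, 4556 and 4936.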
